A study of Mus musculus with 12 samples.

Results

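The genes described here are 36 genes of the apoptosis and p53 response, taken by symbol from the raw count table of mouse liver RNA-seq. They are 2 initiator caspases, 1 executioner caspase, 3 genes of the apoptosome and of proteins released from mitochondria, 2 inhibitors of apoptosis, 12 members of the Bcl2 family, 2 death receptors, p53 with its inhibitor Mdm2, and 12 p53 targets. All 36 were found among the 55401 genes of the table, and 34 of them were among the 13205 genes kept for testing after lowly counted genes were dropped. The livers came from 12 female mice, 15 weeks old, on a C57BL/6J background: 6 iTgMir483 mice and 6 Control littermates. iTgMir483 mice carry an extra copy of the microRNA gene Mir483 at the Rosa26 locus under Tet-off control, so a tetracycline transactivator drives it and doxycycline silences it. Doxycycline was in the drinking water during pregnancy and was then withdrawn, so the transgene could be expressed after birth. The line was made with a ubiquitous Cre that removed its selection cassette, expression is not limited to one liver cell type, and every sample description names the same cross. Whether Control mice carried the Cre or a silent part of the transgene is not given in the labels.

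Apoptosis by the mitochondrial route is set by the Bcl2 family: BH3-only proteins relay stress, the effectors Bax, Bak1 and Bok permeabilise the outer mitochondrial membrane, and survival proteins such as Bcl2 and Mcl1 restrain them. Cytochrome c that leaves the mitochondrion assembles with Apaf1 into the apoptosome, which activates the initiator caspase-9 and, through it, the executioner caspases. p53, a transcription factor stabilised by DNA damage and other stress, turns on some BH3-only and effector genes, cell cycle inhibitors such as Cdkn1a, and its own inhibitor Mdm2. Most of this machinery is regulated at the protein level, by cleavage, binding and degradation, which RNA counts do not measure.

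Depth was 12244123 to 30431286 counts per Control library and 12415140 to 15846175 per iTgMir483 library. Mir483 had 0 counts in all 6 Control libraries and 318 to 761 counts in the iTgMir483 libraries, from transcripts kept by the poly(A) protocol and not from the mature microRNAs. A Control liver allows at most 3 counts of Mir483 by its count of 0, which covers counting error only. The hepatocyte markers were abundant in every liver, with a summed level of 113200 to 159200 CPM (counts scaled to a common effective library size) in Control and 56440 to 125400 CPM in iTgMir483. All 6 hepatocyte markers were without a call, with a median log2 fold change of -0.45. Macrophage markers moved with the groups: 8 of 9 were higher in iTgMir483, and their summed level was 324.8 to 477.1 CPM in Control and 499.7 to 1475 CPM in iTgMir483. Replicate 4 of iTgMir483 stood apart with the 1475 CPM, and the next of its group had 842.0 CPM. Neutrophil markers (3 of the 3 tested, out of 7) and bile duct markers (3 of 5) were also higher, with sums of 3.33 to 6.00 and 20.9 to 46.1 CPM in Control against 6.96 to 26.8 and 60.8 to 89.1 CPM in iTgMir483. The defining neutrophil gene Ly6g was at or near 0 in all libraries, with a highest value of 0.125 CPM. Of the dividing cell markers 1 of the 3 tested (Mki67) was higher, of the lymphocyte markers 1 of the 4 tested (Cd4), and of 5 endothelial, 5 stellate and 5 red blood cell markers 0 each were called by edgeR. At an unadjusted p under 0.05 there were 2, 1 and 0 of these, and 2 of the 6 hepatocyte markers. At an adjusted p under 0.05 whatever the fold, 1 of the 5 endothelial markers passed, higher in iTgMir483. For the stellate, red blood cell and hepatocyte markers this was 0 each. The part of these cells in the differences described here was not tested, and in bulk RNA more cells of a type and more RNA per cell cannot be told apart.

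Both mature products of Mir483 are shown because their seeds, bases 2 to 8, set which transcripts they can pair with. The sequences are from RefSeq on GRCm38.p6, at chr7:142654932-142654952 and chr7:142654968-142654989 on the minus strand, in the intron of Igf2 that hosts the gene, with the seed in capitals.

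miR-483-3p: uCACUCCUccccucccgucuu
miR-483-5p: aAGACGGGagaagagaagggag

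A transcript can pair with the whole seed of miR-483-3p through the letters AGGAGTG, and with that of miR-483-5p through CCCGTCT, read on the transcript's own strand. In the longest annotated 3′ UTR of each gene, AGGAGTG stood in 3 of the 34 tested members (8.82%) and in 1523 of 12098 tested genes with a 3′ UTR (12.6%). CCCGTCT stood in 0 of 34 members and in 394 of the 12098 genes (3.26%). The 3 members that hold the miR-483-3p match are the effector Bok, the BH3-only gene Bcl2l11 (Bim) and the p53 target Sesn2, and their windows of 29 bases on GRCm38 have the match in capitals. They lie in 3′ UTR exons at chr1:93695308-93695336 (plus strand), chr2:128159886-128159914 (plus strand) and chr4:132492951-132492979 (minus strand).

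Bok: gcctctgagagAGGAGTGtggagaaagcc
Bcl2l11: aagagcatgggAGGAGTGgggatggcaag
Sesn2: tctgaagagtaAGGAGTGgctgttggtga

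Bok was higher in iTgMir483, whereas Bcl2l11 and Sesn2 were without a call, with log2 fold changes of 0.53 and -0.36. Of the members called lower, Cycs and Bik held neither match. A match in these windows is a description of letters and not a measured site.

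Of the 34 tested members, 6 passed the test, defined as a Benjamini-Hochberg adjusted p under 0.05 over all genes and a fold change over 1.5 in edgeR's quasi-likelihood test. This is 17.65% of the members, beside 11.1% of all genes tested. The executioner caspase Casp6, the effector Bok, the BH3-only gene Pmaip1 (Noxa) and the antiproliferative p53 target Btg2 rose in iTgMir483, 4 members beside a background of 8.41% of all genes. The cytochrome c gene Cycs and the BH3-only gene Bik fell, 2 members beside 2.73%. By adjusted p alone 10 members passed, 6 higher and 4 lower, beside 18.6% of all genes, and the added genes were Apaf1, Bad, Xiap and Perp. The 6 values of a group stood wholly above the 6 of the other in 3 tested members (Casp6, Bok and Pmaip1), beside 7.92% of all genes. Over the 34 members the median log2 fold change was 0.13, with 25 positive and 9 negative, against a median of 0.0058 over all genes. At the background share a list of 34 genes would hold 3 or 4 such genes, so nothing is read from the count itself.

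**Figure D1:**
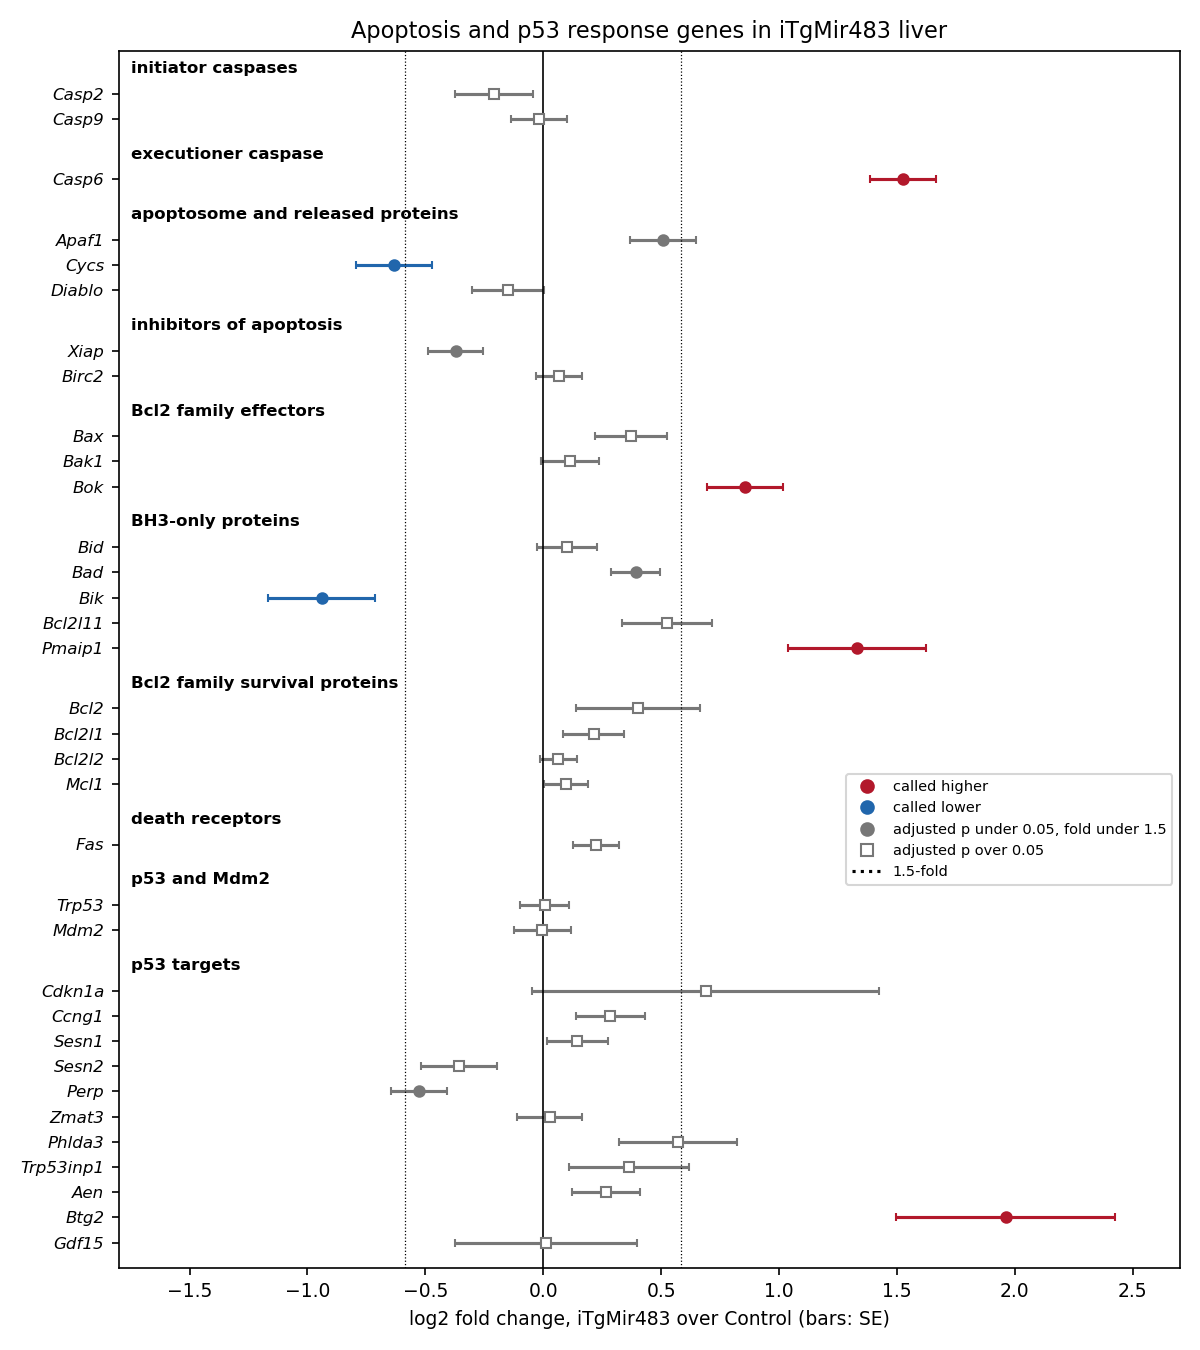
Log2 fold change of iTgMir483 over Control (x axis, with SE) for the 34 tested members, listed by role on the y axis. Red and blue points mark genes called higher and lower, filled grey points an adjusted p under 0.05 without the fold, and open squares neither. Btg2 lies farthest right at 1.96, Casp6 at 1.53 has a short error bar, and Bik lies farthest left at -0.94.

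Of the 3 caspases, the executioner Casp6 passed the test and the initiators Casp9 and Casp2 did not. Casp6 (caspase-6, which cleaves nuclear lamins; GRCm38 chr3:129901425-129914103) ran from 21.3 through a median of 25.5 to 32.1 CPM in Control, and from 56.9 through 78.3 to 91.4 CPM in iTgMir483. Every iTgMir483 liver was above every Control liver. This was a log2 fold change of 1.53 ± 0.14 (SE), a 2.88-fold difference (adjusted p = 2.1e-05). Replicate 4 of iTgMir483 had the lowest Casp6 of its group, 56.9 CPM beside 59.25 CPM in replicate 1. Without replicate 4 the log2 fold change was 1.60.

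Casp9, the caspase of the apoptosome, had 17.3, 23.0 and 26.3 CPM (lowest, median, highest) in Control and 18.5, 21.6 and 28.3 CPM in iTgMir483, which overlapped almost entirely. Its log2 fold change was -0.018 ± 0.12 (adjusted p = 0.94), and its sign changed between settings. Casp2, an initiator linked to DNA damage and ploidy, had a log2 fold change of -0.21 ± 0.17 (adjusted p = 0.40). The ratio of Casp6 to Casp9 counts within each liver, which does not depend on library scaling, was 0.965 to 1.35 in Control (median 1.16) and 2.63 to 4.09 in iTgMir483 (median 3.41). The mean log2 ratios differed by 1.54, and a two-sided test by exact permutation of the 924 assignments of livers gave p = 0.0022, the smallest it can give (0.0065 adjusted over 3 ratios). The ratios were chosen after the values had been seen, with Casp6 already apart between the groups and Casp9 overlapping. This p therefore adds no support to the Casp6 result, and its adjustment does not cover that choice.

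Of the 3 genes of the apoptosome and of released proteins, Cycs fell, Apaf1 passed by adjusted p alone and Diablo did not pass. Apaf1, the scaffold that binds cytochrome c and caspase-9, had 3.45, 4.07 and 5.96 CPM in Control and 5.42, 6.08 and 6.89 CPM in iTgMir483. In 4 of the 6 iTgMir483 livers it was above every Control liver, and the highest Control value, replicate 5, overlapped the other group. Its log2 fold change of 0.51 ± 0.14 had an adjusted p of 0.022 but was under the fold of 1.5, which it passed without Control replicate 5 (0.62). Without Control replicate 4 the adjusted p was 0.059, and with no filter on low counts 0.060.

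Cycs, which encodes somatic cytochrome c (chr6:50562563-50566538), had 52.1, 83.2 and 102.6 CPM in Control and 36.0, 56.0 and 63.2 CPM in iTgMir483. The groups overlapped through Control replicate 1, the lowest of its group, and 2 of 6 iTgMir483 livers were below all Controls. Cycs had a log2 fold change of -0.63 ± 0.16 (adjusted p = 0.015). Without Control replicate 6 it was -0.56 and without iTgMir483 replicate 4 it was -0.54, both under the fold of 1.5. In 28.5% of its words of 50 letters the Cycs transcript matches 76 other annotated genes, so reads may have been shared with these copies. Diablo (Smac, released with cytochrome c to relieve caspase inhibition) stood at 2.51 to 3.25 CPM in Control and 2.04 to 3.30 CPM in iTgMir483, with a log2 fold change of -0.15 ± 0.15.

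Of the inhibitors of apoptosis, Xiap binds and blocks caspases directly, and Birc2 (cIAP1) is a ubiquitin ligase of TNF receptor signalling. Xiap had 60.7, 76.9 and 93.4 CPM in Control and 47.3, 58.6 and 68.1 CPM in iTgMir483, with 3 of 6 iTgMir483 livers below every Control. Its log2 fold change of -0.37 ± 0.11 had an adjusted p of 0.036 without reaching the fold, and its adjusted p was over 0.05 in 8 of the 12 analyses without 1 library, up to 0.078 without Control replicate 5. It stayed under 0.05 without Control replicate 3 or 6 and without iTgMir483 replicate 1 or 6. Birc2 did not pass either criterion, at 0.067 ± 0.097.

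**Figure D2:**
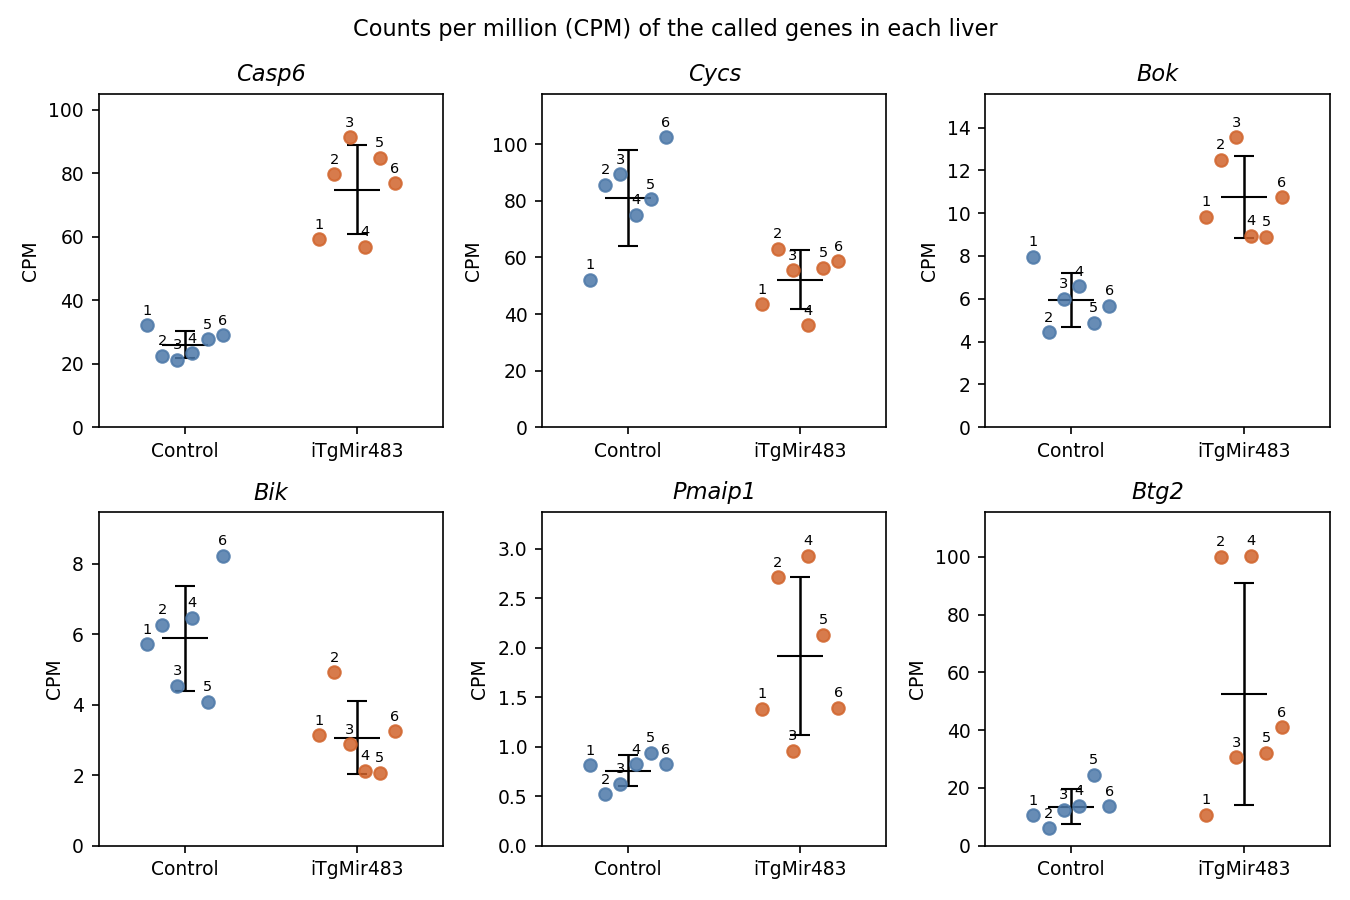
CPM (y axis, from 0) of the 6 called genes in each Control and iTgMir483 liver (x axis). Points are livers with their replicate number, and black bars are the mean and SD of 6. Casp6, Bok and Pmaip1 separate the groups fully, Btg2 is near 100 CPM in iTgMir483 replicates 2 and 4 alone, and Cycs and Bik overlap by 1 liver or more.

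In the Bcl2 family, all 12 members were tested: 2 rose (Bok, Pmaip1), 1 fell (Bik), Bad passed by adjusted p alone, and 8 did not pass. Over all genes 8.41% were called higher and 2.73% lower, so nothing is read from these counts. The effectors are the proteins that form the pore, and of these Bok, which can act without the other two, rose. Bok (chr1:93685660-93695764) had 4.43, 5.83 and 7.97 CPM in Control and 8.90, 10.3 and 13.6 CPM in iTgMir483. The groups did not overlap. In log2 the fold change was 0.86 ± 0.16, or 1.81-fold (adjusted p = 0.0029). Bax had 5.96, 8.11 and 9.66 CPM in Control and 7.64, 10.3 and 12.8 CPM in iTgMir483, so that 3 of 6 iTgMir483 livers were above all Controls. At 0.37 ± 0.15 it had an adjusted p of 0.10. Bak1 had a log2 fold change of 0.11 ± 0.12 (adjusted p = 0.55). The annotated transcripts of Bax and Bak1 share 13.8% and 18.2% of their 50-letter words with 1 other gene each, and those of Bok share 0.

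The BH3-only genes went both ways. Pmaip1, whose product Noxa neutralises Mcl1 and which is a p53 target, was a low-level transcript, with 0.518, 0.818 and 0.938 CPM in Control and 0.960, 1.76 and 2.93 CPM in iTgMir483. These were 9 to 24 counts per Control library and 16 to 40 per iTgMir483 library, and the closest livers, Control replicate 5 and iTgMir483 replicate 3, nearly touched. The log2 fold change was 1.33 ± 0.29 (adjusted p = 0.0068), and 1.17 without iTgMir483 replicate 4, the highest. With a minimum of 10 counts in every library Pmaip1 was not tested.

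Bik (chr15:83526862-83544634), a BH3-only protein of the endoplasmic reticulum, was the family member that fell. It had 4.09, 5.99 and 8.23 CPM in Control and 2.07, 3.01 and 4.92 CPM in iTgMir483, and 5 of 6 iTgMir483 livers were below every Control. Bik had a log2 fold change of -0.94 ± 0.23 (adjusted p = 0.011), a ratio of 0.521 to Control. Bad, a BH3-only protein held inactive by growth factor signalling, had 11.7, 14.0 and 16.9 CPM in Control and 16.1, 18.1 and 21.2 CPM in iTgMir483. In 5 of 6 iTgMir483 livers it was above all Controls, and its log2 fold change of 0.39 ± 0.10 had an adjusted p of 0.017 without reaching the fold. Bcl2l11, a BH3-only activator of Bax and Bak1, had 7.80, 10.1 and 11.9 CPM in Control and 8.52, 13.6 and 21.6 CPM in iTgMir483. It was above all Controls in 5 of 6 livers, and replicate 1 was the exception. At 0.53 ± 0.19 its adjusted p was 0.069, and without iTgMir483 replicate 1 it passed at 0.64 (adjusted p = 0.017). Bid, which links death receptors to the mitochondrion, had a log2 fold change of 0.10 ± 0.13.

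The survival genes Bcl2, Bcl2l1 (Bcl-xL), Bcl2l2 (Bcl-w) and Mcl1 had 0 calls by edgeR, 0 at an unadjusted p under 0.05, and 0 calls by DESeq2 or limma-voom. All 4 log2 fold changes were positive, between 0.064 ± 0.078 for Bcl2l2 and 0.40 ± 0.26 for Bcl2. Per kb of exon, Mcl1 had the highest level of the family, 22.9 ± 2.2 CPM per kb (mean ± SD, n = 6) in Control and 24.4 ± 2.5 in iTgMir483. Among the survival genes Bcl2l1 followed with 7.21 ± 1.18 and 8.37 ± 1.27, and Bcl2l2 with 6.22 ± 0.31 and 6.50 ± 0.53. In iTgMir483 the means of Bad (7.20 ± 0.66) and Bax (6.59 ± 1.25) were above that of Bcl2l2. The SD ranges of Bcl2l1 and Bcl2l2 met in Control and did not in iTgMir483. Bcl2 itself was lowest at 0.235 ± 0.065 and 0.312 ± 0.112 CPM per kb. Among the effectors in Control, Bax (5.07 ± 0.89) and Bak1 (4.91 ± 0.64) were within their spread and Bok was lower at 3.22 ± 0.69, whereas in iTgMir483 Bok (5.84 ± 1.04) lay within the spread of Bax (6.59 ± 1.25) and Bak1 (5.31 ± 0.83). The order of effectors between groups was not tested. Within livers, the ratio of Bax to Bcl2 counts differed by 0.015 in mean log2 (exact permutation p = 0.97) and that of Bax to Bcl2l1 by 0.16 (exact permutation p = 0.53, adjusted 0.79).

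**Figure D3:**
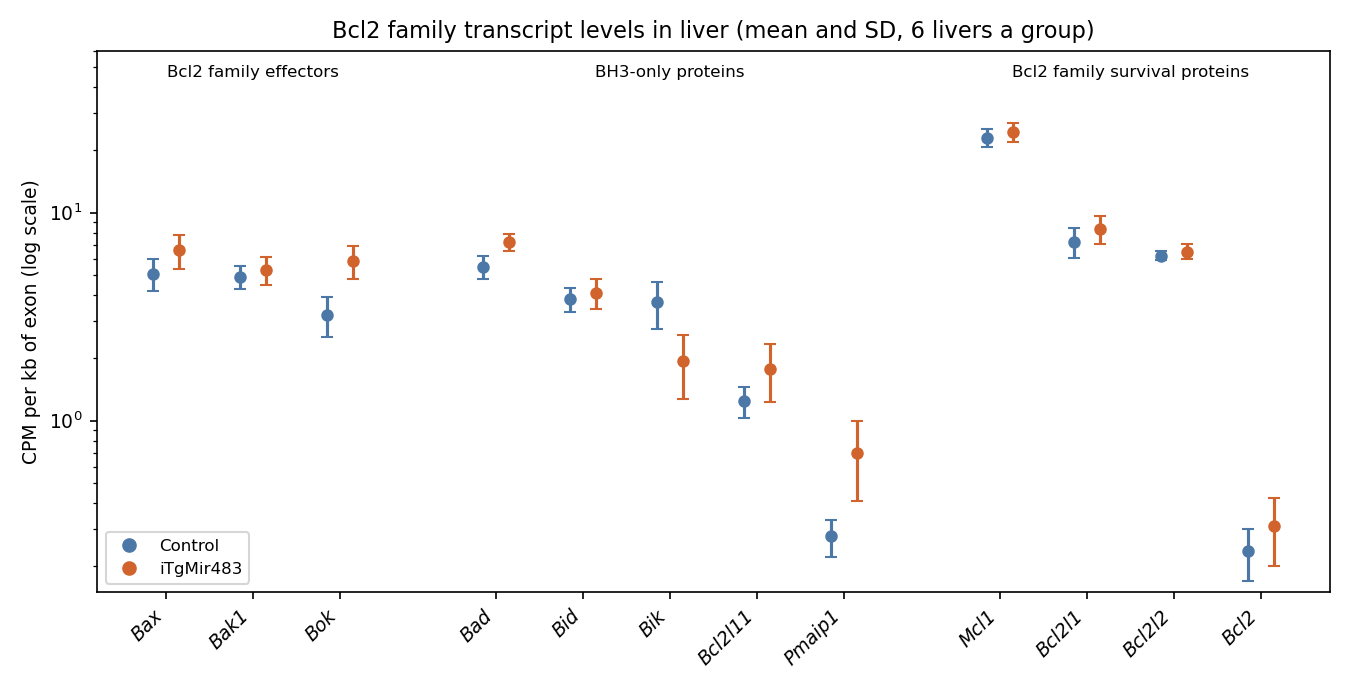
Mean level and SD over 6 livers a group (y axis, CPM per kb of exon, log scale) of the 12 Bcl2 family members, ordered within each role by the Control level. Mcl1 is highest at 22.9 in Control, Bcl2 and Pmaip1 are lowest, and Bok, Pmaip1 and Bik show the widest gaps between the groups.

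Of the death receptors, Fas, which hepatocytes express, had 15.9, 17.9 and 21.9 CPM in Control and 20.1, 20.5 and 24.4 CPM in iTgMir483, a log2 fold change of 0.22 ± 0.10 (adjusted p = 0.12). Only 2 of 6 iTgMir483 livers were above all Controls. Tnfrsf10b, the mouse TRAIL receptor, was dropped as too lowly counted for the test, with 1 to 8 counts per Control library and 4 to 15 per iTgMir483 library. Its values were 0.0914 to 0.279 CPM in Control and 0.293 to 0.900 CPM in iTgMir483, without overlap. Without the filter edgeR did not call it (adjusted p = 0.056), whereas DESeq2, which kept the gene, called it higher (adjusted p = 0.032). Eda2r, a p53 target and the other untested member, had 0 to 17 counts in Control and 2 to 14 in iTgMir483, with overlapping groups.

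Neither the p53 transcript nor that of Mdm2 passed the test. Trp53 had 18.7, 19.1 and 21.3 CPM in Control and 15.2, 19.6 and 23.9 CPM in iTgMir483, and Mdm2 had 25.4, 28.3 and 36.2 CPM in Control and 24.8, 29.2 and 38.1 CPM in iTgMir483. Both pairs of groups overlapped, and the log2 fold changes were 0.0069 ± 0.10 and -0.0044 ± 0.12, whose signs changed between settings. p53 is regulated chiefly through its protein, for which no value was analysed here.

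Of 12 p53 targets 11 were tested, and 1 of them, Btg2, was called, beside the 11.1% of all genes. Perp passed by adjusted p alone, in the opposite direction. The 11 targets had a median log2 fold change of 0.27, with 9 positive and 2 negative. Pmaip1, also a p53 target and called higher, was counted with the BH3-only genes. Of the other p53 targets, taken with the rest of the pathway, 18 were tested and 4 were called (22.2%), 2 higher and 2 lower. The share called among p53 targets therefore depends on how the lists were divided. Btg2 (chr1:134075170-134079120), an immediate early gene that slows the cell cycle, had 5.98, 13.0 and 24.6 CPM in Control and 10.7, 36.6 and 100.5 CPM in iTgMir483. Replicates 2 and 4 of iTgMir483 were near 100 CPM, replicates 3, 5 and 6 were between 30.7 and 40.9 CPM, and replicate 1 lay within the Control range. The log2 fold change was 1.96 ± 0.47 (adjusted p = 0.010), and 1.67 (adjusted p = 0.022) without replicate 4. Perp, a membrane protein of desmosomes and a p53 effector, had 78.2, 101.5 and 111.8 CPM in Control and 49.97, 67.9 and 83.6 CPM in iTgMir483. It was below every Control in 5 of 6 iTgMir483 livers, replicate 2 being the exception. The log2 fold change of -0.53 ± 0.12 (adjusted p = 0.0082) missed the fold of 1.5, and without replicate 2 it was -0.60, which passed.

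Cdkn1a (p21), the cell cycle inhibitor most used as a readout of p53, was the most variable member in iTgMir483. It had 4.08, 39.0 and 90.6 CPM in Control and 2.91, 55.5 and 168.8 CPM in iTgMir483. Replicate 1 was the lowest liver of each group, and iTgMir483 replicate 4 was the highest of all 12. The log2 fold change of 0.69 ± 0.74 had an adjusted p of 0.55, and it was 0.16 without iTgMir483 replicate 4 and 1.07 without Control replicate 3. The coefficient of variation was 78.3% in Control and 90.2% in iTgMir483, where the median over all genes was 16.1% and 18.9%. Part of the Cdkn1a transcript, 10.5% of its 50-letter words, is shared with 1 other annotated gene.

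**Figure D4:**
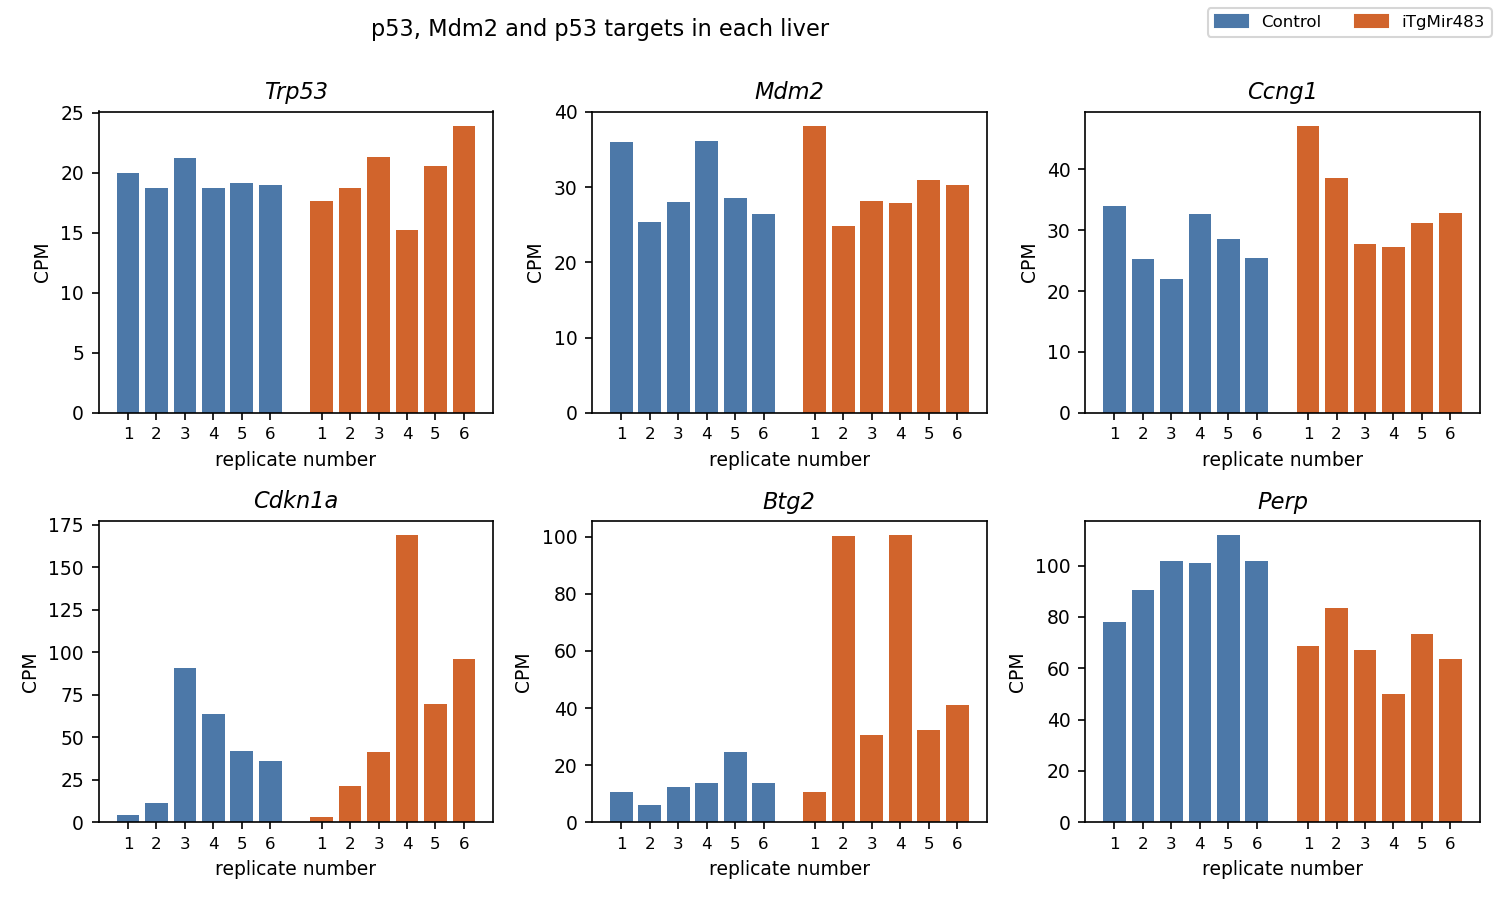
CPM (y axis, from 0) of Trp53, Mdm2, Ccng1, Cdkn1a, Btg2 and Perp in each liver, by replicate number on the x axis, Control in blue and iTgMir483 in orange. Trp53 and Mdm2 overlap between the groups, Cdkn1a runs from 2.91 to 168.8 CPM across livers of both groups, Btg2 is highest in iTgMir483 replicates 2 and 4, and Perp is lower in most iTgMir483 livers.

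The remaining targets did not pass. Phlda3, an inhibitor of Akt, had 0.403 to 1.21 CPM in Control and 0.999 to 1.39 CPM in iTgMir483 (log2 fold change 0.57 ± 0.25, adjusted p = 0.12). Trp53inp1, a p53 cofactor, had a log2 fold change of 0.36 ± 0.26, and Ccng1 (cyclin G1) of 0.28 ± 0.15. Aen, an apoptotic nuclease, had 0.27 ± 0.14 and Sesn1, a stress-induced sestrin, 0.14 ± 0.13. With 1 library left out, Trp53inp1 ranged from 0.16 (without iTgMir483 replicate 4) to 0.54, Ccng1 from 0.17 (without iTgMir483 replicate 1) to 0.35, Aen from 0.16 to 0.32 and Sesn1 from 0.085 to 0.26. The other sestrin, Sesn2, pointed the other way at -0.36 ± 0.16 (adjusted p = 0.14). Zmat3, an RNA-binding protein, and Gdf15, a stress hormone, had log2 fold changes of 0.027 ± 0.14 and 0.013 ± 0.39, and the sign of each changed between settings. Gdf15 varied widely within Control (0.732 to 4.83 CPM).

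The mean log2 level of the 11 tested targets, centred over the 12 livers, was used as a description of each liver. It ran from -0.41 to 0.17 in Control and from -0.36 to 0.54 in iTgMir483, and the groups overlapped. The lowest livers were Control replicates 1 and 2 and iTgMir483 replicate 1, and the highest was iTgMir483 replicate 4. Without Cdkn1a the range was -0.31 to 0.16 in Control and -0.070 to 0.35 in iTgMir483, with replicate 4 still highest.

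Promoter windows from RefSeq (GRCm38.p6), 250 bases before to 50 after each start, were available for 30 of the members and were searched for the p53 half-site consensus, 10 letters that read the same on both strands. It stood in 8 of the 30 members (26.7%: Aen, Bax, Birc2, Ccng1, Cdkn1a, Mdm2, Sesn1 and Trp53) and in 2582 of 27025 genes with a window (9.55%). The called target Btg2 was not among these 8, and Pmaip1 and Perp were among the members without a window. A pair of adjoining half-sites with at most 2 mismatches stood in 1 member, Cdkn1a, and in 51 of the 27025 genes (0.189%). It began 51 bases before a RefSeq start of Cdkn1a and had 1 mismatch, and it is shown because Cdkn1a is the target whose level varied most between livers. The window is chr17:29090923-29090952, plus strand, with the pair in capitals.

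Cdkn1a: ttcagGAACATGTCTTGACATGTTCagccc

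No binding was measured, and the letters do not show use of the site in these livers.

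The rest of the pathway was taken as 68 further genes of the Bcl2 family, death receptor signalling, caspase regulation and p53, of which 53 were tested. Of these, 9 passed (7 higher, 2 lower), 16.98% beside 11.1% of all genes, and the median log2 fold change was 0.046. By adjusted p alone 12 passed, 8 higher and 4 lower, adding Birc3, Usp7 and Dcxr. Bcl2l10 and Rprm were at 0 in all 12 libraries.

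Bcl2l14 (Bcl-G, a divergent Bcl2 relative) had the widest difference, with 0.183 to 0.976 CPM in Control and 0.728 to 3.30 CPM in iTgMir483 and a log2 fold change of 2.03 ± 0.42 (adjusted p = 0.0048). Dram1, a lysosomal p53 target of autophagy, had 1.32 ± 0.31 (adjusted p = 0.011), and 1.06 without iTgMir483 replicate 4. Both were low-level transcripts. Bcl2l14 had 2 to 14 counts per Control library and 10 to 45 per iTgMir483 library, and Dram1 had 7 to 31 and 18 to 55. With a minimum of 10 counts in every library neither was tested. Naip5 and Naip2, sensors of bacterial proteins that belong by sequence to the inhibitors of apoptosis and act in inflammasomes, had 1.09 ± 0.26 and 0.68 ± 0.16. Naip2 was under the fold of 1.5 without iTgMir483 replicate 4 (0.53), and the transcripts of Naip5 and Naip2 share 36.9% and 19.4% of their 50-letter words with other genes. Among p53 regulators, the DNA damage adaptor Trp53bp1 (53BP1) had 8.34 to 11.5 CPM in Control and 12.2 to 21.2 CPM in iTgMir483, with no overlap (0.66 ± 0.15, adjusted p = 0.0070). Its log2 fold change was 0.55, under the fold, without iTgMir483 replicate 3. The Trp53bp1 transcript shares 20.8% of its 50-letter words with 1 other gene, so reads may have been shared.

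Ei24, a p53-induced gene of the endoplasmic reticulum, fell from 225.1, 373.4 and 407.0 CPM in Control to 134.2, 168.2 and 226.6 CPM in iTgMir483 (-0.96 ± 0.17, adjusted p = 0.0020). The groups touched at 1 liver each. Tigar, a p53-induced enzyme that limits glycolysis, had 10.6 to 12.7 CPM in Control and 5.13 to 10.1 CPM in iTgMir483, without overlap (-0.59 ± 0.15, adjusted p = 0.015), and it lost the fold in 5 of the 12 analyses without 1 library. Tnfrsf21 (death receptor 6; 0.60 ± 0.20, adjusted p = 0.044) and Gtse1 (a cell cycle protein that exports p53; 1.02 ± 0.33, adjusted p = 0.044) lost their calls in 10 and 9 of those 12 analyses.

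Among the called pathway genes, the miR-483-3p match stood 2 times in the 3′ UTR of Trp53bp1, which was higher. It stood once in that of Ei24, which was lower. The miR-483-5p match stood in the 3′ UTR of Tigar, which was also lower. Tested pathway genes without a call held the miR-483-3p match too: Cflar (2 matches), Ripk1, Ddb2 and Ddit4. Their log2 fold changes were -0.050, -0.024, -0.12 and 0.65. Of all tested genes with a 3′ UTR, 12.6% held the miR-483-3p match and 3.26% the miR-483-5p match. Nothing is read from the matches in called genes. The windows of the miR-483-3p matches in the called genes are on GRCm38, minus strand, with the match in capitals. They are chr2:121198109-121198137 and chr2:121196111-121196139 for Trp53bp1 and chr9:36779571-36779599 for Ei24.

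Trp53bp1, upstream match: gataaaaatagAGGAGTGagctttatttt
Trp53bp1, downstream match: gaatcttgaacAGGAGTGaagactggcga
Ei24: aaaggaaagaaAGGAGTGggggaaatgga

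Genes of the integrated stress response, which can induce Pmaip1 without p53, and of the circadian clock, which shapes Cdkn1a in liver, were read alongside. Of 8 stress response genes 7 were tested and 1 was called: Atf3, a stress-induced transcription factor, with 0.640, 1.32 and 1.95 CPM in Control and 1.86, 3.13 and 9.14 CPM in iTgMir483 (1.59 ± 0.38, adjusted p = 0.010). Replicate 2 of iTgMir483, which had the highest Atf3, was 1 of the livers with Btg2 near 100 CPM. The 1 call among 7 stands beside 11.1% of all genes. The list's median log2 fold change was 0.51, with 6 positive and 1 negative. In edgeR's test 4 of the 7 had an unadjusted p under 0.05. Atf4 was at 0.32 ± 0.15 (adjusted p = 0.14) and Ddit3 (CHOP), the negative gene, at -0.23 ± 0.16. Of 12 clock genes 0 were called by edgeR and 0 had an unadjusted p under 0.05, with a median of -0.16. The clock genes varied within groups, Ciart from 1.13 to 42.7 CPM among Controls and Dbp from 7.60 to 67.4 CPM. The part of either list in the members' values was not tested.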

How the data were processed

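Liver RNA was sequenced from 6 iTgMir483 and 6 Control mice. The file deposited by the authors holds raw counts: stranded poly(A) libraries were aligned to GRCm38 with STAR and reads were counted per Ensembl gene. Which strand column was used is not given in the sources used here, so overlapping genes and their antisense partners are uncertain.

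Groups and replicate numbers came from the sample titles. Symbols and positions were from GENCODE M21, in which 55141 of 55401 identifiers had a symbol. The table had 0 rows naming no gene. Genes were filtered with edgeR's filterByExpr (13205 kept), scaled by TMM and compared by group alone with its quasi-likelihood F-test (R 4.3.3, edgeR 4.0.16 and limma 3.58.1). Calls required a Benjamini-Hochberg adjusted p under 0.05 over all genes and a fold change over 1.5, the thresholds of the study. SEs were derived as the size of the log2 fold change over the root of the F statistic. CPM are counts over the TMM library size, and CPM per kb divides by the union of annotated exons. The script was tested on simulated counts. Each library was used as 1 replicate, and no 2 libraries of a group agreed within sampling noise as a library deposited again would (smallest chi-square per gene 15.7).

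All 36 members were named, of the other pathway genes those called, and of the other lists some genes as examples. The members and lists were chosen with earlier results of these data known. Genes passing by adjusted p alone and the 3 ratios were picked after their values were seen. Alternatives were RLE factors, no filter, at least 10 counts in every library, DESeq2 (1.42.0), limma-voom, no fold threshold, a test against 1.5-fold, a replicate block, each library left out, and both replicate 1 libraries left out. Leaving out both and iTgMir483 replicate 4 was added after seeing the data.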

Additional observations from a re-analysis of the deposited data

Results flagged for a closer look

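Dixon's test at 95% marked 7 of the 110 groups of 6 livers examined (gene levels and marker sums), where chance marks about 5.5. In each, 1 liver lay far from the other 5, and the gap to its nearest neighbour is given as a share of the group's range. Among members, Apaf1 in Control replicate 5 was 5.96 CPM where the others had 3.45 to 4.33 (0.651). Birc2 in Control replicate 4 was 27.5 CPM where the others had 21.7 to 23.8 (0.649). Bcl2l1 in iTgMir483 replicate 1 was 27.1 CPM where the others had 38.5 to 42.8 (0.728). Among other pathway genes, Naip2 in iTgMir483 replicate 4 was 16.9 CPM where the others had 8.34 to 11.5 (0.634), and Gtse1 in Control replicate 3 was 2.998 CPM where the others had 1.01 to 1.51 (0.749). The summed macrophage markers in iTgMir483 replicate 4 were 1475 CPM where the others had 499.7 to 842.0 (0.649). The summed stellate cell markers in Control replicate 5 were 401.1 CPM where the others had 300.2 to 335.7 (0.648).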

How the results depend on the processing

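The 6 called members were called again with RLE factors, no filter and limma-voom. With at least 10 counts in every library 5 remained (Pmaip1 was not tested), and DESeq2 called 7 (Tnfrsf10b added). The replicate numbers did not pair the livers throughout. The correlation of deviations was 0.44 for replicate 1, 0.17 for replicate 5 and 0.03 to 0.05 for the others. With the replicate block the same 6 members were called, with 7 pathway genes and 1530 of all genes. Without a fold threshold 10 members passed, 4 lower, and 2457 of all genes. Tested against 1.5-fold, 1 member passed (Casp6, the 1 higher member; 0 lower), with 1 pathway gene and 226 of all genes. Leaving out 1 library gave 5 to 7 members (4 to 5 higher, 1 to 3 lower), 6 to 10 pathway genes and 1190 to 1653 of all genes. Cycs lost its call without Control replicate 6 or iTgMir483 replicate 4, and calls were gained by Apaf1, Bcl2l11 and Perp. Without both replicate 1 libraries 8 members were called, and without these and iTgMir483 replicate 4 there were 6, of which 1 was lower. Signs reversed only for genes whose log2 fold change in the main test was near 0, although Gdf15 moved as far as -0.22. Casp9 was 0.029 without both replicate 1 libraries, 0.088 without these and iTgMir483 replicate 4, and -0.098 to 0.031 without 1 library. Trp53 was -0.0058 with RLE, -0.012 with no filter and with DESeq2, -0.0037 with limma-voom, -0.0080 with the replicate block, and -0.058 to 0.069 without 1 library. Mdm2 was 0.0065 with at least 10 counts and -0.085 to 0.053 without 1 library. Zmat3 was -0.096 without the replicate 1 libraries, -0.059 when iTgMir483 replicate 4 was also dropped, and -0.058 to 0.080 without 1 library. Gdf15 was -0.0093 without a filter and -0.22 to 0.19 without 1 library. The cause of these changes was not tested. Among the members, depth limits Pmaip1, Phlda3, Tnfrsf10b and Eda2r, which had at most 40 counts in every library. Of the called pathway genes it limits Bcl2l14 and Dram1, with at most 45 and 55 counts.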
